A study of Drosophila melanogaster with 24 samples.

Results

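Chromatin immunoprecipitation and sequencing (ChIP-seq) of Su(Hw) was compared with that of CP190 in mock-treated Kc167 cells, a female Drosophila melanogaster line derived from embryos. The comparison takes in every deposited peak of these antibodies in mock cells on chromosome arms 2L, 2R, 3L, 3R, 4 and X. These were 4900 Su(Hw) and 8193 CP190 peaks, 13093 of the 34747 peaks in the 8 lists of the series, and 5 Su(Hw) and 3 CP190 peaks on Y were left out. A peak was called shared when it overlapped a peak of the other list by 1 bp or more, and was otherwise called Su(Hw)-only or CP190-only.

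The series holds 24 libraries in 12 groups of 2 replicates. Chromatin was precipitated with guinea pig antiserum against Su(Hw), rabbit antiserum against CP190, rabbit antiserum against the 67.2 isoform of Mod(mdg4), or antiserum against Isha, and 8 of the libraries were inputs. The mock libraries carry no allele or transgene in the labels, which do not say what the mock cells received. For the knockdown libraries the same line received 12 µg of dsRNA targeting Isha and was kept for 5 days. The series asks how far Isha overlaps the insulator proteins and if their association with chromatin needs Isha.

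Each antibody and treatment has 1 list for both replicates, with positions in genome build dm6 and no score. No spread between replicates could be computed, so no difference was tested and no p-value is given. The ranges in parentheses after percentages are 95% Wilson intervals, and those of differences are Newcombe intervals. They cover counting error over peaks only, and peaks are not replicates. Read depth and peak height are unknown, so a site without a peak may hold protein below the authors' threshold.

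Insulators are DNA elements that limit contact between enhancers and promoters or separate chromatin domains. Su(Hw), suppressor of Hairy-wing, is a zinc finger protein that binds a defined DNA sequence and is best known for its sites in the gypsy retrotransposon. CP190 has a BTB domain and is brought to chromatin by several DNA-binding factors, Su(Hw) among them, and is also known for its presence at the promoters of active housekeeping genes. The 67.2 isoform of Mod(mdg4), another BTB protein, is a partner of both at gypsy-type insulators.

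Most Su(Hw) peaks had CP190, and most CP190 peaks lacked Su(Hw). Of the 4900 Su(Hw) peaks, 3789 overlapped a CP190 peak (77.3%, 76.1 to 78.5%), which left 1111 Su(Hw)-only peaks. Of the 8193 CP190 peaks, 3856 overlapped a Su(Hw) peak (47.1%, 46.0 to 48.1%), which left 4337 CP190-only peaks. The midpoints of 76.3% of Su(Hw) peaks lay inside a CP190 peak, whereas CP190 peaks covered 9.48% of the sequence of the arms. In the other direction, 45.6% of CP190 midpoints lay inside a Su(Hw) peak, and Su(Hw) peaks covered 5.82% of the sequence. In base pairs, Su(Hw) peaks covered 7.79 Mb, CP190 peaks 12.7 Mb, and their intersection 5.37 Mb.

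Sharing was lower for Su(Hw) on X than on the other large arms. CP190 was present at 71.8% of the Su(Hw) peaks on X (68.9 to 74.6%), and at 79.9% on 2L, 76.9% on 2R (74.0 to 79.7%), 79.8% on 3L and 77.9% on 3R. The interval of X overlapped that of 2R alone among these. Su(Hw)-only peaks numbered 11.5 per Mb on X and 6.87 to 8.54 per Mb on the other large arms. The small chromosome 4 held 11 Su(Hw) peaks, all of them shared, and 45 CP190 peaks, of which 11 were shared (24.4%, 14.2 to 38.7%). On the large arms 42.8 to 48.9% of CP190 peaks were shared, with the lowest share on 2R and the highest on 3R.

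Where the proteins shared a site, their peaks were centred on nearly the same place. The 3898 overlapping pairs included 3607 in which each peak met a single partner. In these the midpoints lay a median of 78 bp apart (quartiles 33 and 165 bp), and 86.5% were within 250 bp. The median Su(Hw) peak was covered by CP190 over 92.4% of its width, and the median CP190 peak by Su(Hw) over 99.1%. Just 9 of the 3898 overlaps were shorter than 100 bp. In 107 cases a Su(Hw) peak spanned more than 1 CP190 peak, and in 40 cases a CP190 peak spanned more than 1 Su(Hw) peak. Peaks with nearly identical edges were rare, with both edges within 25 bp in 104 pairs (2.88%).

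Which of the paired peaks was wider depended on position. Within 500 bp of the end of a protein-coding gene, CP190 was the wider peak in 70.4% of 787 pairs, with median widths of 1772 bp for CP190 and 1435 bp for Su(Hw). Farther from gene ends it was wider in 32.7% of 2820 pairs, with medians of 1445.5 bp and 1664.5 bp. The 277 pairs with a mock Isha peak had the largest width ratio of the 6 subsets compared. CP190 was wider in 88.8% of them, and the median ratio of CP190 to Su(Hw) width was 1.68, against 0.929 in the 3330 pairs without Isha. With Mod(mdg4) the widths were close, with a median ratio of 1.01 over 1135 pairs, against 0.894 over 2472 pairs without it. Over all 3607 pairs the widths were loosely related across sites (Spearman's rho 0.361, a description over peaks of the same libraries).

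Su(Hw)-only peaks were narrower than the Su(Hw) peaks that had CP190. Their median width was 1087 bp (quartiles 814 and 1471.5 bp), against 1614 bp for shared Su(Hw) peaks (1203 and 2041 bp). When Su(Hw) peaks were ordered by width and parted into 4 equal sets, 57.1% of the narrowest set was shared (54.3 to 59.8%), followed by 73.5%, 86.0% and 92.7% (91.1 to 94.1%) in the widest. A wider peak has more room to overlap another. With the midpoint of the Su(Hw) peak inside a CP190 peak as the criterion, which removes the width of the Su(Hw) peak from the overlap, the shares were 56.3%, 73.2%, 85.8% and 90.0%. CP190 gave a different order. The median was 1337 bp for CP190-only peaks and 1518.5 bp for shared CP190 peaks, but the share with Su(Hw) ran 45.8%, 35.0%, 47.3% and 60.2% from the narrowest to the widest set.

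**Figure D1:**
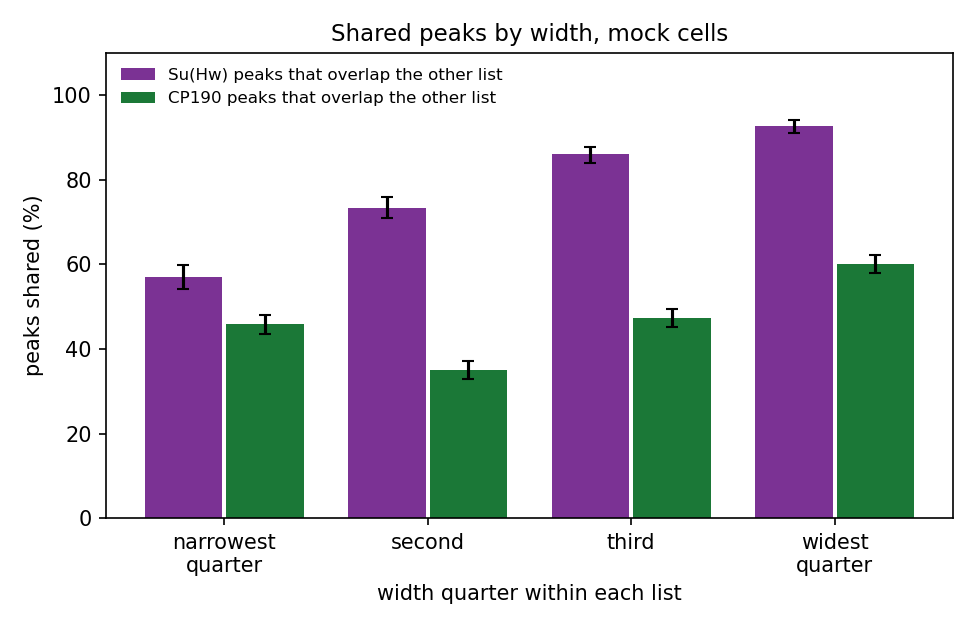
Percentage of peaks shared with the other list in mock cells (y axis), for 4 equal sets of Su(Hw) and of CP190 peaks ordered by width within each list (x axis). Bars are shares and error bars 95% Wilson intervals over peaks; the Su(Hw) bars climb from 57.1 to 92.7%, while the CP190 bars are lowest in the second set at 35.0%.

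The classes lay in different parts of the genome relative to genes. CP190-only peaks were at gene ends: 75.5% of their midpoints (74.2 to 76.8%) had the start or end of a protein-coding gene no more than 500 bp away, as did 15.0% of all positions along the arms. Shared Su(Hw) peaks were there in 21.7% of cases (20.4 to 23.0%) and Su(Hw)-only peaks in 6.57% (5.26 to 8.18%), below the arm positions. The gap between shared and Su(Hw)-only peaks was 15.1 points (13.1 to 17.0), and that between CP190-only and shared CP190 peaks 53.6 points (51.7 to 55.4). With a 50% reciprocal overlap required, Su(Hw)-only peaks were near gene ends in 15.5% of cases, and with midpoints within 250 bp in 13.5%, so their low share holds for the 1 bp definition. The gene table gave no strand, so starts and ends of genes were not told apart.

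Read from the side of the gene ends, Su(Hw) peaks there more often had CP190 than those farther away, and CP190 peaks less often had Su(Hw). Of the 895 Su(Hw) peaks near a gene end, 91.8% had CP190 (89.9 to 93.5%), against 74.1% of the 4005 farther away. Of the 4122 CP190 peaks near a gene end, 20.5% had Su(Hw) (19.3 to 21.8%), against 73.9% of the 4071 farther away. With 50% reciprocal overlap, a setting added after the values were seen, the shares were 69.9% and 63.5% for Su(Hw), and 15.7% and 62.0% for CP190. With midpoints within 250 bp they were 73.5% and 62.1%, and 16.2% and 60.8%. The order held, but many more Su(Hw) peaks near gene ends lacked CP190 under these stricter definitions.

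Distances to the nearest gene end put the classes in the same order. The median was 156 bp for CP190-only peaks (quartiles 67.5 and 474 bp), 3015 bp for shared Su(Hw) peaks and 6098 bp for Su(Hw)-only peaks, with 3908.5 bp for arm positions. More than 5000 bp from any gene end lay 57.0% of Su(Hw)-only peaks, 38.7% of shared Su(Hw) peaks and 9.32% of CP190-only peaks, against 44.6% of arm positions. Many CP190-only peaks lay where genes abut. The ends of more than 1 gene were within 500 bp of the midpoint for 2217 of them (51.1%, 49.6 to 52.6%), against 6.36% of shared Su(Hw), 1.26% of Su(Hw)-only peaks and 4.84% of arm positions.

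**Figure D2:**
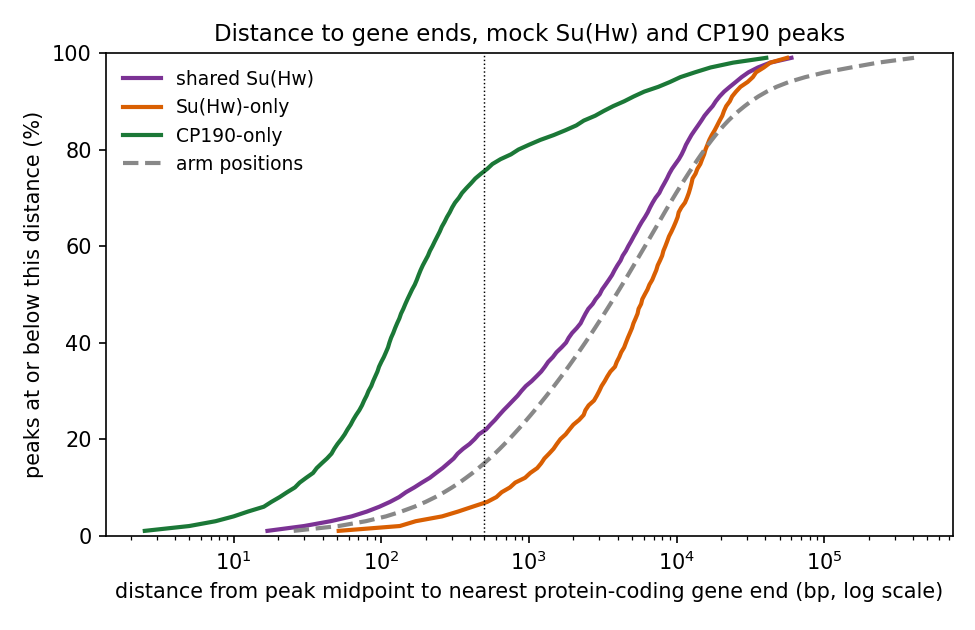
Distance from the midpoint of each peak to the nearest protein-coding gene end (x axis, bp, log scale) against the percentage of the class at or below that distance (y axis). Lines are shared Su(Hw), Su(Hw)-only and CP190-only peaks and, dashed, positions every 50 bp along the arms; at the dotted line, 500 bp, CP190-only peaks have reached 75.5% and Su(Hw)-only peaks 6.57%.

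Su(Hw)-only peaks were the class most often inside genes, at a share near that of arm positions. Their midpoints lay in a protein-coding gene in 69.5% of cases (66.7 to 72.1%), against 67.2% of arm positions. The shares were 57.0% for shared Su(Hw) and 44.9% for CP190-only peaks. Inside a gene and more than 500 bp from any end lay 66.6% of Su(Hw)-only peaks (63.8 to 69.3%) and 56.5% of arm positions. For shared Su(Hw) and CP190-only peaks this was 48.8% and 16.6%. That count leaves out gene ends, where Su(Hw)-only peaks were few. The genes around them were long. The median length of the gene that held the midpoint was 48456 bp for Su(Hw)-only, 40833 bp for shared Su(Hw) and 7070 bp for CP190-only peaks. Where several genes held it, the longest was taken. The median of all 13922 protein-coding genes was 2163 bp, and no such length was computed for arm positions. A long gene also takes up more sequence in which a peak can fall. Between genes, the gap that held the peak had a median of 19599 bp for Su(Hw)-only, 10762 bp for shared Su(Hw) and 482.5 bp for CP190-only peaks.

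Width and position were linked in opposite directions for the proteins at shared sites. Among shared Su(Hw) peaks the narrowest of 4 equal sets was near a gene end in 30.6% of cases (27.7 to 33.6%) and the widest in 12.9% (10.9 to 15.2%). Among shared CP190 peaks the share was 9.44% in the narrowest set and 31.4% in the widest. Su(Hw)-only peaks showed little of this, with 4.69 to 8.27% in the 4 sets and intervals that overlapped.

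CP190-only peaks were the most closely spaced class and Su(Hw)-only peaks the most scattered. The nearest peak of the same class was a median of 4843.5 bp away for CP190-only peaks, 8394 bp for shared Su(Hw) peaks and 25319.5 bp for Su(Hw)-only peaks. It was within 5000 bp for 51.2%, 32.3% and 12.9% of them. These distances also follow the number of peaks in each class, 4337, 3789 and 1111. From a Su(Hw)-only peak the nearest CP190 peak was a median of 8085.5 bp away, and from a CP190-only peak the nearest Su(Hw) peak was 15021 bp away. Near misses were few: 48 Su(Hw)-only peaks (4.32%) ended within 500 bp of a CP190 peak, and 84 CP190-only peaks (1.94%) within 500 bp of a Su(Hw) peak.

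**Figure D3:**
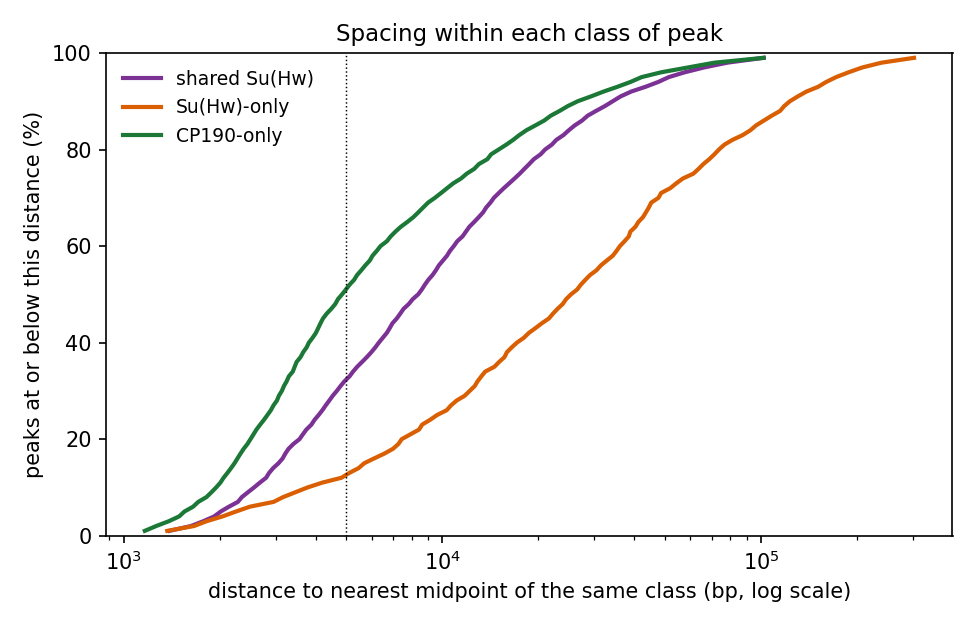
Distance from each peak midpoint to the nearest midpoint of the same class on the same arm (x axis, bp, log scale) against the percentage of the class at or below it (y axis), for shared Su(Hw), Su(Hw)-only and CP190-only peaks. At the dotted line, 5000 bp, the lines stand at 32.3, 12.9 and 51.2%.

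Sites of the same class tended to follow each other along the arms. With overlapping peaks joined there were 9195 sites, of which 40.8% were shared, 12.1% Su(Hw)-only and 47.2% CP190-only. The sites next to a CP190-only site were themselves CP190-only in 67.6% of cases and Su(Hw)-only in 6.82%. Next to a shared site, 56.5% were shared, and next to a Su(Hw)-only site 26.2% were Su(Hw)-only and 47.2% shared. In 1340 bins of 100 kb, the number of shared peaks and of Su(Hw)-only peaks had a Spearman's rho of 0.210, while CP190-only peaks had 0.0282 with shared and -0.0187 with Su(Hw)-only peaks. These correlations describe bins of the same libraries, in which gene density also varies.

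The insulator genes themselves lay in different classes. The su(Hw) gene (3R:14304455-14308589) had a shared site at one end, with Su(Hw) at 14307326 to 14309275, CP190 at 14307277 to 14309407, Mod(mdg4) at 14307601 to 14308755 and Isha at 14308003 to 14309939. The Cp190 gene (3R:15270432-15275241) had a CP190-only peak over one end, at 15274518 to 15275872. Isha peaks lay over it, at 15272877 to 15276545, and beyond the other end, at 15267387 to 15269805. The mod(mdg4) gene (3R:21370101-21377401) had 3 CP190-only peaks, at 21372971 to 21374757, 21375883 to 21376736 and 21376968 to 21378288. Isha peaks overlapped these, at 21372535 to 21373794 and 21375330 to 21377205. Neither Cp190 nor mod(mdg4) had a Su(Hw) peak within 1000 bp.

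Between yellow, a pigmentation gene, and the proneural gene achaete lies a long-studied endogenous Su(Hw) insulator. The lists held a shared site there that overlapped one end of yellow (X:356509-361245), with Su(Hw) at 360874 to 362729, CP190 at 360760 to 363133 and Mod(mdg4) at 361034 to 362329. No Su(Hw) or CP190 peak lay within 1000 bp of achaete (X:370031-370947) or of scute. Of the 5 yellow and achaete-scute genes 1 had a shared peak (20%, against 21% of all protein-coding genes) and none had another class. CP190-only peaks lay at 47.6% and Su(Hw)-only peaks at 5.21% of all protein-coding genes. After Isha knockdown the Su(Hw) peak spanned 360930 to 362476 and the CP190 peak 360843 to 362737.

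The 8 widest shared peaks all lay at genes longer than 20000 bp. The widest was inside bru3, a Bruno-family RNA-binding protein gene, at 3L:13563977-13572546 (8570 bp), where the Su(Hw) peak spanned 2 CP190 peaks. The 7 next widest were at PVRAP, an adaptor gene of the receptor Pvr (3L:5995561-6002052), Dscam3 (3R:17502853-17509159), hbt (2L:13315777-13321960), Dscam4 (3L:8250747-8256808), CG30089 (2R:15725965-15731847), the glucose transporter gene Glut1 (3L:964695-970449) and again bru3 (3L:13685785-13691447). Dscam3 and Dscam4 encode adhesion molecules of the Dscam family. All 8 overlapped a Mod(mdg4) peak and both knockdown lists of Su(Hw) and CP190, and none overlapped an Isha peak. Of all 1136 shared peaks in the widest of the 4 sets of Su(Hw) peaks, 47.4% had Mod(mdg4). Knockdown Su(Hw) was at 100% and knockdown CP190 at 97.3% of these, and Isha was at 7.81% of shared Su(Hw) peaks of any width.

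The widest Su(Hw)-only peaks lay inside genes or over one end of them. The widest was in SP2353 (2R:16034303-16038078, 3776 bp). It was followed by peaks at CG17075 (2L:259255-262571), side-II, of the Sidestep family (2L:14939215-14942493), vkg, a collagen IV chain gene (2L:5024687-5027754), CG8861 (3R:9318253-9321182), tbc (X:20453055-20455863), ASPP (2R:21228030-21230780) and norpA, the phospholipase C gene of phototransduction (X:4332709-4335439). All 8 also had a Su(Hw) peak after knockdown, and the peaks at CG17075 and side-II then had CP190 as well. None overlapped Mod(mdg4) or Isha. Of all 89 Su(Hw)-only peaks in the widest of the 4 sets, 100% had knockdown Su(Hw), 23.6% knockdown CP190 and 0 Mod(mdg4). Isha was at 2.07% of Su(Hw)-only peaks of any width.

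The 8 widest CP190-only peaks each spanned an end of the gene named here. The widest covered one end of EcR, the ecdysone receptor gene, at 2R:6165542-6172349 (6808 bp). Then came Imp, an mRNA-binding protein gene (X:10785295-10791406), COX7AL2 (2L:2191910-2197876), Pfrx (X:19494084-19499592), nej, the gene of the CBP acetyltransferase (X:9683996-9688967), bip1 (3L:8055960-8060903), Hk, a potassium channel beta subunit gene (X:10259990-10264903), and Slmap (2L:22575011-22579886). Isha was present at Imp, COX7AL2, Pfrx, nej and Slmap. All 8 had CP190 and none had Su(Hw) after knockdown. Of all CP190-only peaks, 94.1% had knockdown CP190, 2.35% knockdown Su(Hw) and 66.2% mock Isha.

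Across all 13922 protein-coding genes, 21% had a shared peak within 1000 bp of the gene, 5.21% a Su(Hw)-only peak and 47.6% a CP190-only peak, and 37.1% had none of these. A gene can have more than 1 class. Long genes had more of each. Among the 1012 genes of 20000 bp or more the shares were 70.8%, 38% and 56.1%, so the counts of each gene list are to be read beside the lengths of its genes. In the longest of 4 equal sets of all genes, those of 5000 bp or more, the shares were 41.7%, 15.9% and 57%, and in the shortest 14.9%, 1.75% and 30.2%. The classes were counted without a set test, and nothing is called particular to a class from these counts.

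Housekeeping classes had CP190-only peaks. Of 93 cytosolic ribosomal protein genes 84 had one (90.3%), none had a Su(Hw)-only peak and 10 had a shared peak (10.8%), among them RpS21, RpS26, RpS15, RpL28, RpS9 and RpLP0. Counted at gene ends alone, where 36.6% of all genes had a CP190-only peak within 500 bp, 74 of the 93 had one. The mitochondrial ribosomal protein genes were alike, with 61 of 73 CP190-only (83.6%) and 7 shared, including mRpL13, mRpL53 and mRpS16. CP190-only peaks lay at 29 of 48 proteasome subunit genes (60.4%), for instance Rpn11 and Prosalpha6, at 54 of 81 genes of oxidative phosphorylation (66.7%) and at 34 of 52 translation factor genes (65.4%). Shared peaks lay at 4, 8 and 8 genes of these classes (8.33%, 9.88% and 15.4%). Rpn13, the ATP synthase gene blw and the elongation factor gene eEF2 were among them. Of all genes 21% had a shared peak and 5.21% a Su(Hw)-only peak. In the shortest and the second of 4 equal sets of all genes by length, shared peaks lay at 14.9% and 12.4%. Su(Hw)-only peaks lay at 1.75% and 1.26% of these sets, so their absence from the 93 genes was close to those shares. Ribosomal protein genes are short, with medians of 1318 bp for the cytosolic and 909 bp for the mitochondrial ones. The mitochondrial median falls in the shortest of the 4 sets and the cytosolic one in the second. A CP190-only peak lay at 30.2% of genes in the shortest set, 47.4% in the second (1179 to 2163 bp) and 47.6% of all genes. The proteasome (1381 bp) and translation factor (1955 bp) medians also fall in the second set. That of oxidative phosphorylation genes (1094 bp) falls in the shortest.

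CP190-only peaks were also more frequent at genes of chromatin proteins and of chaperones than at all genes, of which 47.6% had one. Shared peaks lay at 21% of all genes and Su(Hw)-only peaks at 5.21%. By median length the Polycomb group genes fall in the longest of 4 equal sets and the other classes here in the third. CP190-only peaks lay at 55.8% of genes in the third set and 57% in the longest, and shared peaks at 14.7% and 41.7%. They lay at 26 of 33 insulator and architectural protein genes (78.8%; median length 4212 bp), among them Cp190, mod(mdg4), Isha and the zinc finger insulator gene CTCF. Shared peaks lay at 2 of them, su(Hw) and shep, whose product is an RNA-binding cofactor of insulators. Of 14 Polycomb group genes, which encode repressors of developmental genes and had a median length of 8048 bp, 12 had a CP190-only peak (85.7%), such as ph-p, ph-d, Sce, esc and Su(z)12, and 1, Pc, also had a shared peak. Of 20 heat shock and chaperone genes (median 2335 bp) 14 had a CP190-only peak (70%), among them Hsp22, Hsp23 and Hsp27, and none a shared one. The single Su(Hw)-only peak of that class was at Hsp70Ba, and its position is uncertain because the Hsp70 genes are near-identical copies.

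Synaptic and neuronal genes, which are long, often had shared and Su(Hw)-only peaks. Shared peaks lay at 23 of 32 (71.9%), Su(Hw)-only peaks at 15 (46.9%) and CP190-only peaks at 14 (43.8%, below the 47.6% of all genes, though with 50% reciprocal overlap 17 had one, 53.1% against 50.9%). The median length of these genes was 36470 bp, and 31 of the 32 were in the longest of 4 equal sets of all genes. Among their 22 members of 20000 bp or more, 18 had a shared peak (81.8%), 11 a Su(Hw)-only peak (50%) and 11 a CP190-only peak, beside 70.8%, 38% and 56.1% of all genes of that length. At gene ends, 7 of the 32 had a shared peak and 2 a Su(Hw)-only peak, where 8.63% and 0.618% of all genes and 15.5% and 0.948% of the longest set did.

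Single neuronal genes showed different arrangements. Syt1, the calcium sensor gene of synaptic vesicles (2L:2772327-2799979), had 4 Su(Hw) peaks within 1000 bp, all with CP190, at 2782390 to 2783375, 2785156 to 2787036, 2797511 to 2799882 and 2800096 to 2801309. The vesicle fusion gene nSyb (3L:1630348-1637752) had a Su(Hw)-only peak over one end (1629221 to 1631456) and a shared peak at the other (1636878 to 1638282). The active zone gene brp (2R:9503765-9541565) had 2 shared and 3 Su(Hw)-only peaks and a CP190-only peak over one end, at 9539843 to 9542719. The sodium channel gene para had all 3 classes, the GABA receptor gene Rdl shared and Su(Hw)-only peaks, and the RNA-binding protein gene fne a shared peak.

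The genes of the ecdysone response, which times moults and metamorphosis, were also long. Shared peaks lay at 12 of 18 (66.7%), Su(Hw)-only peaks at 6 (33.3%) and CP190-only peaks at 9 (50%, above the background, but 33.3% and below it at gene ends). Their median length was 36624 bp, and 10 of the 13 members of 20000 bp or more had a shared peak (76.9%), near the 70.8% of all genes of that length. Of these 13, 5 had a Su(Hw)-only peak (38.5%, against 38%) and 8 a CP190-only peak (61.5%, against 56.1%). EcR, Eip74EF, Eip75B, Eip78C, Eip93F and br all had shared peaks, and EcR, Eip75B, Eip93F and br also had Su(Hw)-only peaks. EcR (2R:6087873-6169087) had 3 shared Su(Hw) peaks, at 6087696 to 6090203, 6140652 to 6141448 and 6150668 to 6151928, a Su(Hw)-only peak of 671 bp at 6161361 to 6162031, and 5 CP190-only peaks. At the first of the shared sites, over a gene end, Mod(mdg4) was present too (6088799 to 6089662).

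Among genes that pattern the body axis, the Hox genes are long (median 30563 bp, all 8 in the longest set) and the segmentation genes shorter (3272 bp, 5 of 18 in it). Of the 8 Hox genes, pb, Antp, Ubx and Abd-B had shared peaks, and 6 had CP190-only peaks, lab and Dfd among them. Counted at gene ends, 1 of 8 had a CP190-only peak (12.5%, against 36.6% of all genes). No Hox gene had a Su(Hw)-only peak, but with 50% reciprocal overlap 4 did. Of their 6 members of 20000 bp or more, 4 had a shared peak (66.7%), near the 70.8% of all genes of that length. A CP190-only peak lay at 4 of these 6, against 56.1% of all genes of that length. No shared peak of a Hox gene lay within 500 bp of a gene end. Of 18 segmentation genes 15 had none of the 3 classes, hb, Kr and kni among them, where 37.1% of all genes had none. The exceptions were bcd with a shared peak, opa with Su(Hw)-only and CP190-only peaks, and hh with a CP190-only peak.

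The bithorax complex, looked at after its values were seen, had shared sites in Ubx and Abd-B and none in abd-A. Ubx (3R:16656623-16734426) had a shared site deep inside the gene, with Su(Hw) at 16680892 to 16682907, and a CP190-only peak over one end at 16654749 to 16657238. Abd-B (3R:16927212-16972236) had 2 shared sites, with Su(Hw) at 16957499 to 16958397 and 16969354 to 16970239, and 2 CP190-only peaks. The abd-A gene (3R:16807214-16830049) had no Su(Hw) or CP190 peak within 1000 bp. After Isha knockdown CP190 was listed at both Abd-B sites, and Su(Hw) at the second, at 16969423 to 16970147.

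The classes tied to immunity, blood, signalling and the germline had both shared and CP190-only peaks. Of 14 Toll and Imd pathway genes (median 5490 bp), 5 had shared peaks (35.7%: Tl, spz, Myd88, imd and Tak1), 9 CP190-only peaks (64.3%), such as cact, and none a Su(Hw)-only peak. Of 16 genes of the EGFR and Ras pathway (median 17366 bp, 14 in the longest set), 7 had shared peaks (43.8%), among them Egfr, aos, Dsor1, pnt, sty and drk, and 10 had CP190-only peaks (62.5%). The shares of all genes in the longest set were 41.7% and 57%, and of the 8 pathway members of 20000 bp or more 4 had a shared peak (50%, against 70.8%). Blood cell genes were included because the line is described as hemocyte-like. Of 17, with a median of 4771 bp, 5 had shared peaks (29.4%: srp, ush, Hml, Pxn and Pvr) and 10 CP190-only peaks (58.8%). Counted at gene ends, 3 had a CP190-only peak (17.6%, against 36.6% of all genes). Their 3 genes with Su(Hw)-only peaks were ush, Pxn and vkg (17.6%). Of the blood cell genes 8 were in the longest set, as were 8 of the Toll and Imd genes. All genes had shared, Su(Hw)-only and CP190-only peaks in 21%, 5.21% and 47.6% of cases, and the longest set in 41.7%, 15.9% and 57%. Of 15 germline genes (median 3658 bp) 3 had shared peaks (20%: vas, piwi and bam), against 21% of all genes, and 10 CP190-only peaks (66.7%), such as nanos, osk and bgcn.

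Genes of tissue-restricted families had few CP190-only peaks. Of 81 cuticle protein genes, with a median length of 892 bp, 9 had one (11.1%), 22 had a shared peak (27.2%) and 49 had none of the classes. The 22 genes shared 16 Su(Hw) peaks, since these genes lie in clusters such as those of Cpr47Ea, Cpr47Ee and Cpr47Ef and of Cpr49Aa, Cpr49Ab and Cpr49Ac. Of 119 odorant and gustatory receptor genes, with a median of 1444 bp, 17 had CP190-only peaks (14.3%), 15 had shared peaks (12.6%), for instance Gr28a, Or35a and Or43a, and 86 had none. For the receptor genes the side of the background turned at gene ends, where 11 of 119 had a shared peak (9.24%, against 8.63% of all genes). Among small RNA genes, 134 of 269 snoRNA genes (49.8%) and 81 of 290 tRNA genes (27.9%) had a CP190-only peak. Shared peaks lay at 37 and 52 of them (13.8% and 17.9%). Of all protein-coding genes 47.6% had a CP190-only and 21% a shared peak, and of the shortest set 30.2% and 14.9%. The snoRNA share with a CP190-only peak was near that of all protein-coding genes and above that of the shortest set. The tRNA share with one was below that of all genes and near that of the shortest set. For shared peaks the snoRNA share was near that of the shortest set, and the tRNA share lay between that and the share of all genes.

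**Figure D4:**
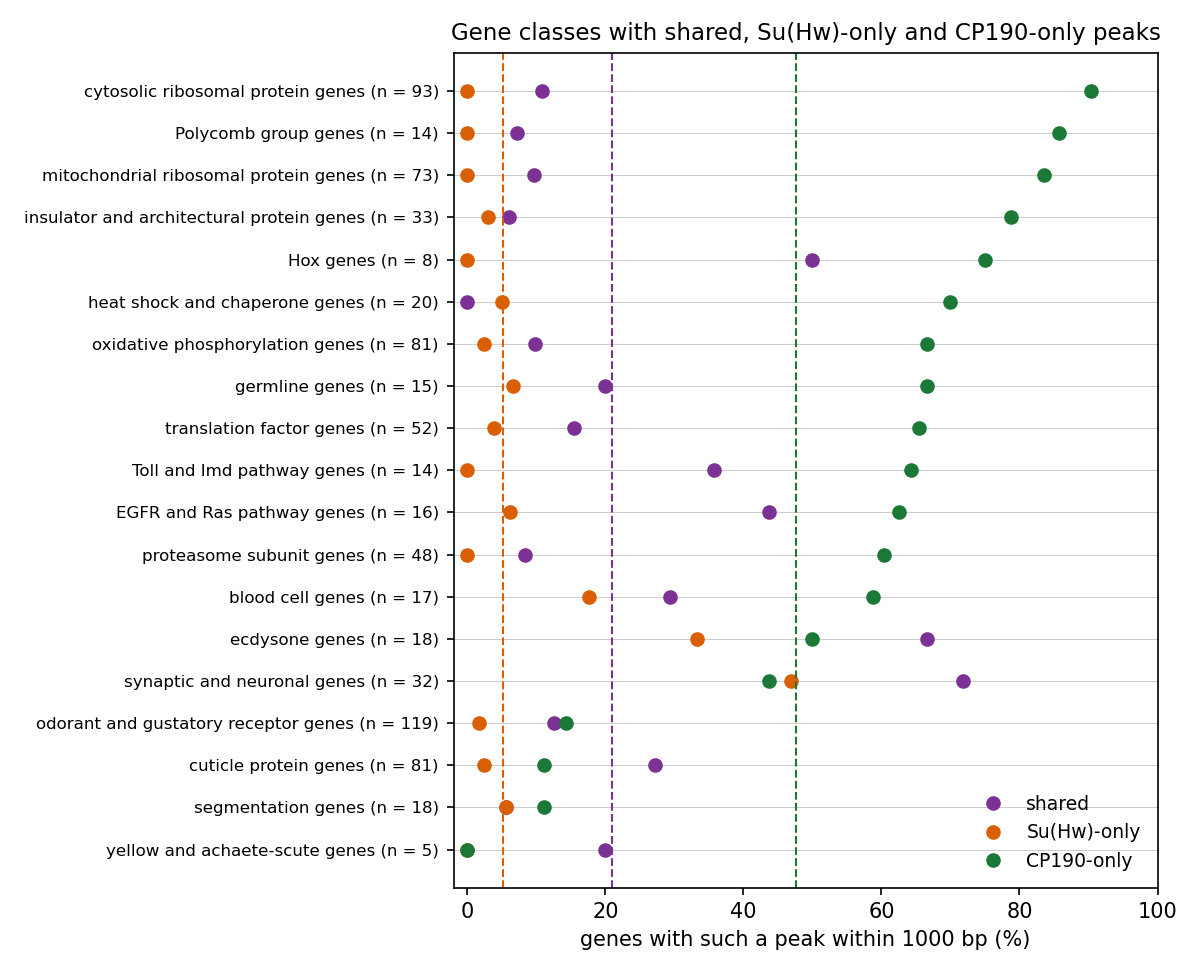
Percentage of the genes of each class (y axis, n in parentheses) with a shared, Su(Hw)-only or CP190-only peak within 1000 bp of the gene (x axis). Points are shares and dashed lines the shares of all 13922 protein-coding genes, at 21, 5.21 and 47.6%; cytosolic ribosomal protein genes stand highest for CP190-only peaks and synaptic and neuronal genes for shared peaks.

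Mod(mdg4) lay at shared sites and almost nowhere else. It overlapped 1210 of the 3789 shared Su(Hw) peaks (31.9%, 30.5 to 33.4%), 2 of 1111 Su(Hw)-only peaks (0.180%, 0.0494 to 0.654%) and 3 of 4337 CP190-only peaks (0.0692%, 0.0235 to 0.203%). Of the 1305 Mod(mdg4) peaks, 97.9% overlapped a shared peak and 23 (1.76%) lay outside both lists. Wide Su(Hw) peaks had it more often when they also had CP190: over the 4 width sets of all Su(Hw) peaks the share among shared peaks was 3.86%, 21.6%, 42.8% and 47.4%. Among Su(Hw)-only peaks it was 2 of 526 in the narrowest set and 0 of 325, 171 and 89 in the others, for which the upper Wilson limits are 1.17%, 2.20% and 4.14%, and 3 counts in place of 0 would give 0.923%, 1.75% and 3.37%. Shared Su(Hw) peaks had Mod(mdg4) in 38.6% of cases near gene ends (35.3 to 41.9%) and in 30.1% farther away.

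Isha was listed more often at CP190-only peaks than at the other classes. It overlapped 66.2% of CP190-only peaks (64.7 to 67.5%), 7.81% of shared Su(Hw) peaks (7.0 to 8.71%) and 2.07% of Su(Hw)-only peaks (1.38 to 3.09%). Of the 4735 Isha peaks, 60.3% overlapped a CP190-only peak and 7.98% a shared peak, while 1538 (32.5%) lay outside both lists. Within each class that had CP190, Isha was more frequent at gene ends. The share was 78.6% of CP190-only peaks near a gene end and 27.7% of those farther away, and 20.6% and 4.28% of shared Su(Hw) peaks. The difference between the classes was therefore present on both sides of the 500 bp limit.

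After Isha knockdown the classes were largely found again. Su(Hw) was listed at 92.4% of shared Su(Hw) peaks (91.5 to 93.2%) and at 81.2% of Su(Hw)-only peaks (78.8 to 83.4%). Within sets of like width the classes were close, at 64.7% and 63.3% in the narrowest, 95.8% and 95.1% in the second, and 99.7% or more in the third and the widest. Knockdown CP190 peaks lay at 16.0% of Su(Hw)-only peaks (14.0 to 18.3%), against 93.3% of shared Su(Hw) peaks. In the widest set they lay at 23.6% of 89 Su(Hw)-only peaks (16.0 to 33.4%), all of which had Su(Hw) in both treatments. In all, 740 Su(Hw)-only peaks (66.6%) had Su(Hw) and no CP190 after knockdown, and 3986 CP190-only peaks (91.9%) had CP190 and no Su(Hw).

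Between the knockdown lists the share of Su(Hw) peaks with CP190 was close to the 77.3% of mock cells, and the share of CP190 peaks with Su(Hw) was below their 47.1%. Of 4711 knockdown Su(Hw) peaks, 77.6% overlapped a knockdown CP190 peak (76.4 to 78.8%), and of 8880 knockdown CP190 peaks, 42.2% overlapped Su(Hw) (41.2 to 43.2%). At shared Su(Hw) peaks near gene ends, knockdown Su(Hw) was listed in 84.5% of cases (81.9 to 86.9%) and knockdown CP190 in 97.0%. Farther from gene ends the shares were 94.6% (93.7 to 95.3%) and 92.2%. The Su(Hw) peaks near gene ends were the narrower ones in this class, with median widths of 1441 bp near gene ends and 1678 bp elsewhere. The part of width in this gap was not tested.

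**Figure D5:**
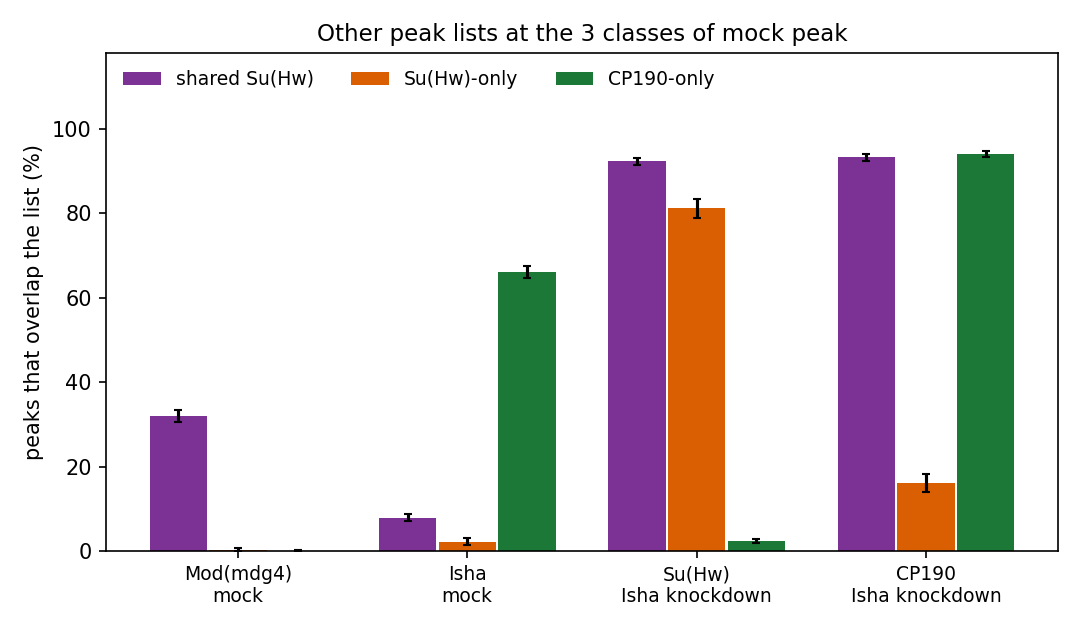
Percentage of shared Su(Hw), Su(Hw)-only and CP190-only mock peaks (y axis) that overlap the mock Mod(mdg4) and Isha lists and the Su(Hw) and CP190 lists of Isha knockdown cells (x axis). Bars are shares and error bars 95% Wilson intervals over peaks; Mod(mdg4) is at 31.9% of shared Su(Hw) peaks and Isha at 66.2% of CP190-only peaks.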

How the data were processed

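ChIP-seq peaks of mock Kc167 cells were analysed from the lists the authors deposited, which hold chromosome, start and end and no other column, so their values are positions and not a measured unit. Bowtie2 2.4.1, Picard 2.22.2, SAMtools 1.9 and the build dm6 are named in the submitters' processing notes. Not given in the sources used here are the peak caller, its threshold, the control library and how replicates were joined. One knockdown list is spelled "SwHw" and was read as Su(Hw).

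Coordinates are counted from 1. The 13922 protein-coding genes of the 6 arms came from a RefSeq table (assembly Release 6 plus ISO1 MT) that gives no strand. Near a gene end means a midpoint within 500 bp. Arm positions were taken every 50 bp. The overlap step was tested on a simulated list. Gene end distance, nearest peak, genes over a midpoint and genes with a peak were checked against plain loops on samples of the peaks and genes. Python 3.11.15, NumPy 2.4.6, pandas 2.3.3, SciPy 1.17.1 and matplotlib 3.10.9 were used.

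The 19 gene lists and the peaks compared were chosen with earlier results of these data known. The cuticle list was corrected after its values were seen, since its symbol pattern had taken in accessory gland genes. Genes were named by a rule: the nearest protein-coding gene of the 8 widest peaks of each class, up to 6 members per gene list in list order (shared first, then Su(Hw)-only, then CP190-only), su(Hw), Cp190, mod(mdg4) and the yellow to achaete interval. abd-A was named after its values were seen, as were the positions given inside neuronal, Hox and ecdysone genes. Alternatives were stricter overlap, merged neighbours, all sequences, removal of narrow peaks, base pairs and other windows.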

Additional observations from a re-analysis of the deposited data

How the results depend on the processing

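The median widths of the 3 classes moved by less than the standard deviation of single peak widths under the 5 alternatives run for each. That limit is wide for a median over so many peaks. With midpoints within 250 bp the median was 1303 bp for Su(Hw)-only and 1582.5 bp for shared Su(Hw) peaks, against 1087 and 1614 bp as reported. Su(Hw)-only peaks had the lower of these medians in every alternative, but by a smaller gap in that one. Merging neighbours or using all sequences moved none of the shares beyond its interval. The share of Su(Hw) peaks with CP190 was 64.7% with 50% reciprocal overlap, 64.2% with midpoints within 250 bp, 72.8% without the narrowest 10% of peaks and 69.0% in base pairs. The share of CP190 peaks with Su(Hw) was 38.7%, 38.4%, 44.3% and 42.4% under the same settings. The share near gene ends of shared Su(Hw) peaks was 19.8% with reciprocal overlap, 13.6% with a window of 250 bp and 31.5% with 1000 bp. For Su(Hw)-only peaks it was 15.5% (reciprocal), 13.5% (midpoints), 3.96% and 12.8%, and for CP190-only peaks 69.2%, 68.4%, 63.1% and 80.9%, or 77.2% without narrow peaks. The cause of these moves was not tested. CP190-only peaks stayed highest and Su(Hw)-only peaks lowest in each of these settings. Summed over the 19 gene lists, genes with a shared peak numbered 138, or 61 at gene ends. Genes with a Su(Hw)-only peak numbered 37, or 6 at gene ends and 67 with reciprocal overlap. At gene ends, the classes stayed on their side of the share of all genes in 17 of 19 lists for shared, 10 for Su(Hw)-only and 16 for CP190-only peaks. Those that turned for CP190-only were Hox, ecdysone and blood cell genes, with 1, 6 and 3 genes, and for shared peaks Hox and receptor genes. With reciprocal overlap 18, 16 and 18 lists stayed. No paired analysis was possible because each group has 1 list for both replicates, so leaving out a replicate was not possible either. Gene starts alone and motif shares were not run, since no strand or sequence was used here. Without scores or reads, a peak missing from a list cannot be told apart from a weak one.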
